A study of Rattus norvegicus with 18 samples.

Results

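Aminoacyl-tRNA synthetases attach each amino acid to its transfer RNA. Animal cells hold separate sets of these enzymes for the cytosol and for mitochondria, both encoded in the nucleus, and their mRNAs were followed here in rat INS-1 insulinoma cells made to express a folding-deficient insulin. Members were taken by symbol from the platform annotation: 1 capital letter and "ars" with an optional 1 or 2, together with Farsa, Farsb, Fars2, Eprs1, Ears2 and Pars2. Symbols that end in 2 were counted as mitochondrial. The rule found 32 of the 14217 genes that had a probe set of their own, 19 cytosolic and 13 mitochondrial. Lars2, Mars2 and Pars2 had no single-gene probe set. Gars1 and Kars1 stand on the cytosolic side by their symbols, although each single gene is known to supply both compartments.

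Clone #4S2 is 1 INS-1 clone that carries a pTet-ON regulator and mouse Ins2 (C96Y)-EGFP under a doxycycline-responsive promoter, and it had been sorted for bright EGFP cells after an earlier induction. Treated cells received doxycycline at 2 µg/ml, with arrays after 24 h, after 48 h and after 5 days. Control cells of the same clone were left untreated for those times. Each of the 6 groups holds 3 arrays, 1 from each of 3 independent experiments, 18 arrays in all. No line without the transgene was treated on these arrays. The mutant insulin and doxycycline itself, which is known to act on mitochondrial ribosomes, therefore cannot be told apart here. The study reports, without showing the data, that the same dose left Grp78 and Chop unchanged in parental INS-1 cells. That statement names no synthetase. Some arrays stood apart: the control of experiment 1 at 24 h, both arrays of experiment 2 at 5 days, and the 5-day pair of experiment 1, whose labels ran against ER chaperone genes. Their values are given with those times.

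Cytosolic synthetases feed the ribosomes that make nearly all cell proteins. In mammals several of them sit in a multisynthetase complex on the scaffold proteins Aimp1, Aimp2 and Eef1e1, and the others work free. The enzymes fall into class I and class II by the fold of the catalytic domain. Many cytosolic synthetase genes are known targets of ATF4, the transcription factor made when eIF2α is phosphorylated by PERK in ER stress or by GCN2 in amino acid shortage. ATF4 binds with C/EBP partners to a composite element with the core TGATGNAA. Mitochondrial synthetases charge the transfer RNAs used to translate the few proteins encoded in mitochondrial DNA.

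Because that element is a known sequence feature of such genes, RefSeq promoters (build GRCr8, 250 bases before to 50 after each start) were searched for TGATGNAA on both strands, and no other motif was sought. A match was present in 7 of the 17 cytosolic promoters that had an entry and in 0 of the 13 mitochondrial promoters. Among all 33469 promoters 3.98% held a match. Gars1 and Rars1 had no entry. The matches of 6 of these genes, those that rose at 48 h, are shown as read on the strand of the gene, 5′ to 3′, with the element in capitals, as TGATGCAA or as its reverse complement TTGCATCA, and with the bases that flank it.
Tars1, chr2:62114811-62114840, minus strand: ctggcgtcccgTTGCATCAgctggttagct
Iars1, chr17:15193658-15193687, minus strand: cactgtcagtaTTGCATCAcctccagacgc
Mars1, chr7:65023754-65023781, minus strand: gcccgttccggTTGCATCAgcgtgggct
Nars1, chr18:60275783-60275807, minus strand: cctaggtgatcTGATGCAAcgcttc
Cars1, chr1:208225334-208225363, minus strand: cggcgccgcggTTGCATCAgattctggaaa
Yars1, chr5:146820190-146820212, plus strand: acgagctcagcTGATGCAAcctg
The match began 27, 24, 17 and 14 bases before the start in Tars1, Iars1, Mars1 and Nars1. In Cars1 and Yars1 it lay after the start, ending at bases 25 and 46 of the transcribed side. For Cars1, Iars1 and Mars1 the start used lies inside the annotated extent of the gene, so other transcripts start further out. A match is a description of the sequence and not a measured binding site.

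At 48 h of doxycycline most cytosolic synthetases rose, and no mitochondrial one was called in either direction. Of the 19 cytosolic genes 12 rose, between 0.46 and 1.01 on the log2 scale, and 0 fell (limma with the experiment as a block, Benjamini-Hochberg adjusted p under 0.05 over 15521 probe sets). Of the 11 mitochondrial genes tested 0 rose and 0 fell, and at an unadjusted p under 0.05 the count was also 0, where 12.2% of all probe sets tested were higher and 12.5% lower. Over all probe sets tested 2.33% were called higher and 1.19% lower. The median log2 ratio of the 19 cytosolic genes was 0.59, 0.73 and 0.66 in experiments 1, 2 and 3. The median of the 13 mitochondrial genes was −0.01, −0.07 and 0.07, and the median of all probe sets tested was −0.01 over the experiments. The log2 ratio was positive in each of the 3 experiments for 16 of the 19 cytosolic genes and 1 of the 13 mitochondrial genes, and for 22.8% of all probe sets tested. In RNA of bulk cells, fewer cells of a type and less RNA per cell cannot be told apart. With any 1 experiment left out, with all probe sets tested whatever their signal, or with all 18 arrays in 1 fit, 0 cytosolic genes were called by limma, while 12 to 15 of them had an unadjusted p under 0.05 in the higher direction, as did 6.02% to 9.95% of all probe sets tested in those settings. Without the block, 9 were called, and Farsb, Sars1 and Vars1 were not.

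**Figure D1:**
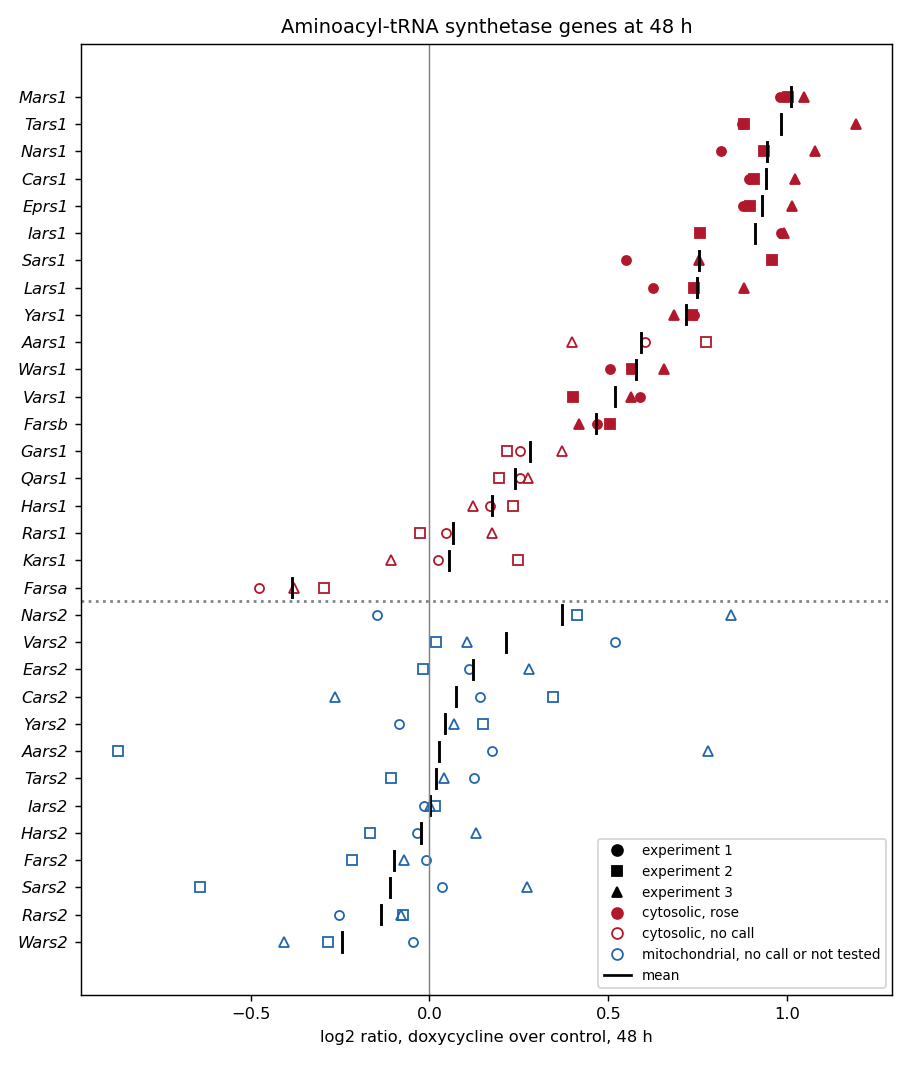
Log2 ratio of doxycycline over control at 48 h (x axis) for each of the 32 synthetase genes (rows), with 1 symbol per experiment and a bar at the mean of 3. Filled symbols mark the 12 cytosolic genes that rose. The means of the mitochondrial genes, below the dotted line, lie between −0.25 and 0.37, and Nars2 and Ears2 among them were too dim to test.

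The 8 cytosolic genes with the largest ratios are described first, with the quantile-normalized signal of each array in the order of experiments 1, 2 and 3. Mars1, which charges the methionine tRNAs of both initiation and elongation, had signals of 3823, 4180.5 and 4566 in doxycycline-treated cells, against 1939, 2087 and 2210.1 in control cells. Its log2 ratio was 1.01 (SE 0.07, adjusted p = 0.0126), a 2.01-fold level. Tars1, the threonine enzyme, had 2849.9, 2503 and 2661 with doxycycline, against 1556, 1360.2 and 1166 in control cells. In both genes the lowest treated array lay far above the highest control array. The log2 ratio of Tars1 was 0.98 (SE 0.10, adjusted p = 0.0215).

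Nars1, the asparagine enzyme, gave 4856, 4322 and 4694 with doxycycline, against 2762, 2259 and 2226 in control cells (log2 ratio 0.94, SE 0.08, adjusted p = 0.0187). Cars1, the cysteine enzyme, gave 1263, 1208 and 1248 with doxycycline, against 680.0, 644 and 614 in control cells (log2 ratio 0.94, SE 0.07, adjusted p = 0.0137). The 3 treated values of Cars1 were within a narrow range of each other, and so were its control values.

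Eprs1, a fused enzyme that charges both glutamate and proline tRNAs, had 2832, 3056 and 3093 with doxycycline, against 1543, 1642 and 1533 in control cells (log2 ratio 0.93, SE 0.07, adjusted p = 0.0141). Iars1, the isoleucine enzyme, had 2145, 1918 and 2288 with doxycycline, against 1086, 1136 and 1151 in control cells (log2 ratio 0.91, SE 0.08, adjusted p = 0.0203). For both genes the treated and control groups were separated in all 3 experiments. Sars1, the serine enzyme, had 4562, 4312 and 4125 with doxycycline, against 3116, 2219 and 2447 in control cells (log2 ratio 0.75, SE 0.10, adjusted p = 0.0350). Lars1, the leucine enzyme, had 4063, 4083 and 4484 with doxycycline, against 2634, 2445 and 2439.7 in control cells (log2 ratio 0.75, SE 0.08, adjusted p = 0.0260). The spread of Sars1 was the widest of the 8, its ratio being 0.55, 0.96 and 0.75 in the 3 experiments.

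The other cytosolic genes that were called rose by smaller amounts. Yars1, the tyrosine enzyme, rose by 0.72 on the log2 scale, Wars1, the tryptophan enzyme, by 0.58, Vars1, the valine enzyme, by 0.52, and Farsb, the β subunit of the phenylalanine enzyme, by 0.46. The adjusted p of Farsb was 0.0424 and that of Vars1 was 0.0422, so both lay close to the threshold. Aars1, the alanine enzyme, lay just outside it with a log2 ratio of 0.59 and an adjusted p of 0.0507, and its ratio was positive in 3 of 3 experiments. Gars1 and Qars1, the glycine and glutamine enzymes, had ratios of 0.28 (adjusted p = 0.109) and 0.24 (adjusted p = 0.128), also positive in 3 of 3. In 15 of the 19 cytosolic genes all 3 treated signals exceeded all 3 control signals, against 11.3% of all probe sets tested and 0 of the 11 mitochondrial genes tested.

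**Figure D2:**
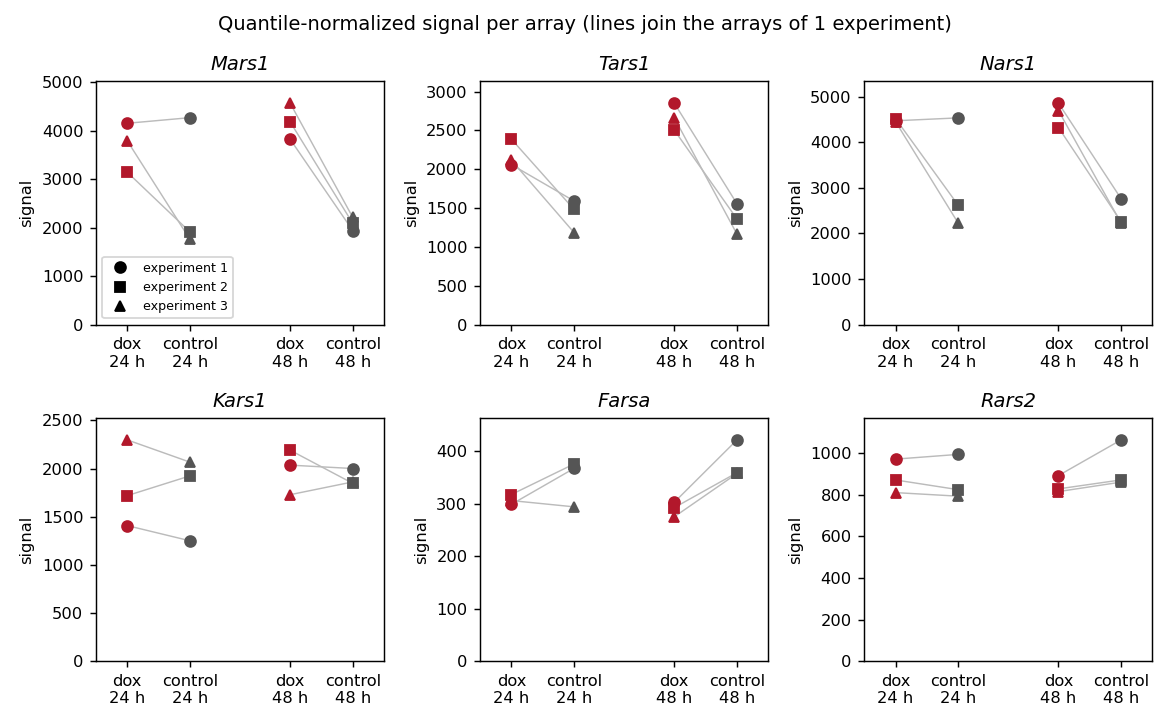
Quantile-normalized signal (y axis, linear, from 0) of 6 synthetase genes on the 24 h and 48 h arrays, doxycycline in red and control in grey, with lines joining the arrays of 1 experiment. Mars1, Tars1 and Nars1 separate at 48 h, and the experiment 1 control array at 24 h stands high for Mars1 (4268) and Nars1 (4534). Kars1, Farsa and the mitochondrial gene Rars2 show no such rise.

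The cytosolic set did not move as a block. Kars1, the lysine enzyme, had 2037, 2191 and 1729.9 with doxycycline, against 2001, 1847 and 1863 in control cells, with a log2 ratio of 0.05 (95% interval −0.19 to 0.30). Rars1, the arginine enzyme, had 2973, 2562 and 2439 with doxycycline, against 2878, 2608 and 2159.7 in control cells, with a log2 ratio of 0.07 (95% interval −0.14 to 0.27). Both are members of the multisynthetase complex, as are Mars1, Eprs1, Iars1 and Lars1. Hars1, the histidine enzyme, had 1998, 1578 and 1347 with doxycycline, against 1778, 1343 and 1239 in control cells, and its groups overlapped (log2 ratio 0.17, adjusted p = 0.223). The intervals of Kars1 and Rars1, which are not adjusted for the number of genes, had upper ends below the lower ends of Mars1 (0.83), Eprs1 (0.74), Iars1 (0.69) and Lars1 (0.53). These are the called members of the complex, and Qars1, also a member but not called, had a lower end of 0.06.

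Farsa, the α subunit of the phenylalanine enzyme, ran the other way from its partner. Its signals were 303, 293 and 275 with doxycycline, against 422, 359 and 358 in control cells, all treated values lying below all control values. The log2 ratio was −0.38 (SE 0.08), and the adjusted p of 0.0686 missed the threshold. The enzyme is a tetramer of α and β subunits, and the log2 ratio of Farsb minus that of Farsa was 0.95, 0.80 and 0.80 in experiments 1, 2 and 3 (mean 0.85 ± 0.08, SD, n = 3). This difference was not given a test of its own. A dimmer Farsb probe set, which was not tested, had a log2 ratio of −0.13.

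Grouped by role, 4 of the 7 measured enzymes of the multisynthetase complex and 8 of the 12 free enzymes rose. By class, 7 of 9 class I enzymes and 4 of 9 class II enzymes rose, and Eprs1, which holds a domain of each class, made up the 12. Median log2 ratios were 0.75 for the complex, 0.58 for the free enzymes, 0.72 for class I and 0.46 for class II. The difference between these groups was not tested. Of the 12 genes that rose, 6 carried the element in the promoter window (Cars1, Iars1, Mars1, Nars1, Tars1 and Yars1), and Eprs1, Farsb, Lars1, Sars1, Vars1 and Wars1 did not. Of the 5 cytosolic genes without a call that had a promoter entry, only Aars1 carried it. A window without these letters says nothing about the factor.

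The 6 mitochondrial genes of highest mean signal were measured about as precisely as the cytosolic ones. Rars2, for arginine, had 892, 828 and 815 with doxycycline, against 1063, 871 and 860.4 in control cells. Fars2, the monomeric phenylalanine enzyme, had 649, 606 and 443 with doxycycline, against 653, 705 and 466 in control cells. Tars2, for threonine, had 549.5, 485 and 498 with doxycycline, against 504, 523 and 485 in control cells. In each of these genes the groups overlapped, and the log2 ratios were −0.13, −0.10 and 0.02.

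Yars2, for tyrosine, gave 326, 377 and 447 with doxycycline, against 346, 339.6 and 426 in control cells. Hars2, for histidine, gave 323, 304 and 304 with doxycycline, against 331, 341 and 278 in control cells. Iars2, for isoleucine, gave 233, 265 and 261 with doxycycline, against 236, 262 and 261 in control cells, so the arrays of each experiment were nearly equal. The SE of the 6 ratios was 0.07 to 0.09, as against 0.07 to 0.10 for the 12 cytosolic genes that rose. The upper ends of their 95% intervals ran between 0.07 for Rars2 and 0.26 for Yars2, below the lowest lower end among the 12 risen genes, 0.28 for Farsb. Those 12 were picked by their calls, which keeps their lower ends above 0, so this is no test of the compartments. Among the 7 cytosolic genes without a call, lower ends ran from −0.58 for Farsa to 0.34 for Aars1.

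The other mitochondrial genes were dimmer and more scattered. Vars2 (0.21), Cars2 (0.07), Aars2 (0.03) and Sars2 (−0.11) had SEs between 0.12 and 0.31. Their 95% intervals all held 0 and had upper ends of 0.52, 0.42, 0.84 and 0.37. Each upper end lay above 0.28, the lower end of Farsb. In Aars2 (95% interval −0.79 to 0.84) a change of the cytosolic size could not be told from 0. Wars2, for tryptophan, had the lowest mitochondrial ratio, −0.25 (adjusted p = 0.206), and its 3 treated signals lay below its 3 control signals. Ears2 and Nars2 lay under the signal filter and were not tested, with mean log2 ratios of 0.12 and 0.37.

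**Figure D3:**
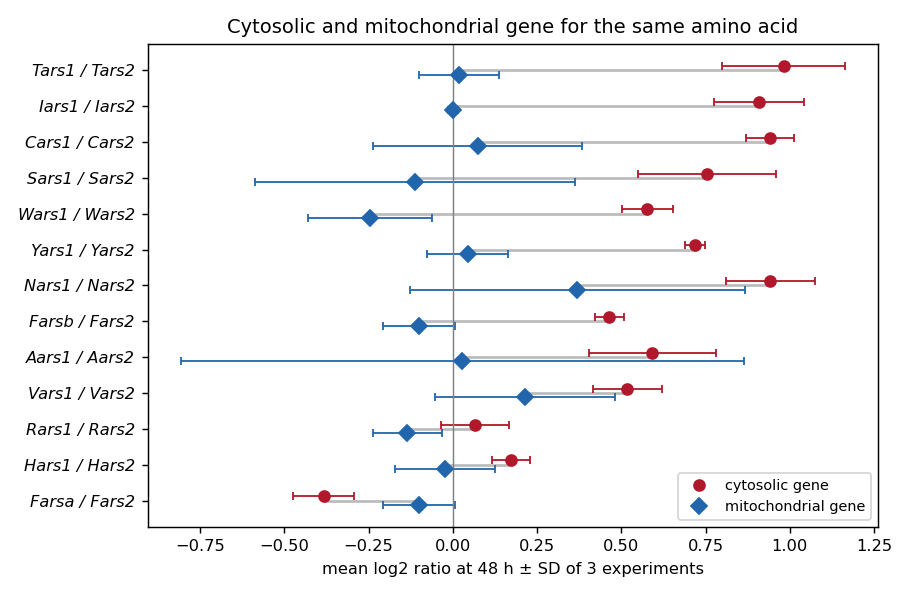
Mean log2 ratio at 48 h (x axis, bars are the SD of 3 experiments) of the cytosolic (red circles) and mitochondrial (blue diamonds) gene for the same amino acid, ordered by their difference. The cytosolic gene lies to the right in 12 of 13 pairs, from Tars1 and Tars2 at the top to Hars1 and Hars2, and to the left for Farsa and Fars2.

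Pairs of genes for the same amino acid put both compartments side by side. The cytosolic gene had the higher mean log2 ratio in 12 of 13 pairs at 48 h, and in 10 pairs it was higher in each of the 3 experiments. The median difference was 0.57. It was largest for threonine, where Tars1 exceeded Tars2 by 0.75, 0.99 and 1.15 in the 3 experiments, and for isoleucine, where Iars1 exceeded Iars2 by 1.00, 0.74 and 0.99. Tryptophan gave 0.55, 0.85 and 1.06. The exception was Farsa, 0.28 below Fars2, whereas its partner Farsb was 0.56 above it. Hars1 and Hars2 stand head to head on chromosome 18, at 28655669 to 28672712 on the minus strand and 28672810 to 28682367 on the plus strand, with 97 bases between them. Neither was called, and their ratios were 0.17 and −0.02.

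Other probe sets of the same genes were available for a part of the list. A second Mars1 probe set had a log2 ratio of 0.90 (adjusted p = 0.0137), 2 further ones of Cars1 0.88 and 0.94 (0.0233 and 0.0192) and a second of Wars1 0.50 (0.0395). Of the other tested Eprs1 probe sets, 1 was called at 0.84 (adjusted p = 0.0475) and 1 was not at 0.66 (0.0777). A second Lars1 probe set was at 0.18 (adjusted p = 0.602), so the probe sets of Lars1 disagreed. The rise of Lars1 therefore rests on the brighter of its probe sets. Further probe sets of risen genes lay under the signal filter and were not tested. Those of Farsb (−0.13) and Eprs1 (−0.43) were negative at 48 h. Those of Cars1 (0.47), Iars1 (0.75) and Vars1 (0.69) were positive. The rise of Farsb thus also rests on its brighter probe set.

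Of the genes around tRNA charging, 1 of the 2 export receptors was called and the members of the other lists were not. Xpot, the exportin that carries tRNAs out of the nucleus, rose by 1.05 on the log2 scale at 48 h (SE 0.12, adjusted p = 0.0269), with ratios of 0.79, 1.31 and 1.06. Xpo5, the other exportin of the list, was at −0.03 (adjusted p = 0.870), positive in 1 of 3 experiments. Of the 3 scaffold proteins of the multisynthetase complex 0 were called, with log2 ratios between 0.09 and 0.15. Of 6 genes for editing of mischarged tRNAs or for selenocysteine 0 were called, and the highest, Prorsd1, was at 0.47 (adjusted p = 0.0664). Among 6 cytosolic elongation factor genes, which deliver charged tRNAs to the ribosome, 0 were called and the median was 0.07. Among 8 mitochondrial genes for tRNA amidation, formylation and elongation 0 were called and the median was 0.05. At an unadjusted p under 0.05 the counts of these last 4 lists were 0, 1, 0 and 1, all higher, where 12.2% of all probe sets tested were higher at that threshold.

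The stress response genes chosen as references were higher, but their choice was not independent of these arrays. The study had already listed all 6 ER references, and Atf4, Ddit3 (Chop) and Trib3, as induced on them. Their rise is therefore a description and no separate support. All 7 genes linked to ATF4 and amino acid stress were called higher at 48 h, where 2.33% of all probe sets tested were. Their median log2 ratio was 1.76. Among them Atf4 itself was at 1.37 (adjusted p = 0.00929), Asns, asparagine synthetase, at 0.65 (adjusted p = 0.0272), and Slc7a11, the cystine importer, at 3.79 (adjusted p = 0.00669). All 6 ER chaperone and degradation references, led by Sdf2l1 at 1.86, were also higher. These genes were higher on the same arrays as the cytosolic synthetases, and their part in the synthetase values was not tested.

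After 24 h of doxycycline the same direction was present without a call. Of the 19 cytosolic genes 0 were called, where 0.193% of all probe sets tested were called higher and 0.0129% lower, and 0 of 11 mitochondrial genes were called. At an unadjusted p under 0.05 there were 11 cytosolic genes, all higher, and 2 mitochondrial genes, both lower, where 7.75% of all probe sets tested were higher and 6.94% lower at that threshold. The cytosolic median log2 ratio was 0.42, and it was 0.05, 0.42 and 0.65 in experiments 1, 2 and 3. The mitochondrial medians were −0.04, −0.05 and −0.03. All 3 treated signals exceeded all 3 control signals in 3 of the 19 cytosolic genes, against 5.03% of all probe sets tested. Of the 6 ER chaperone references 5 were called higher at 24 h, with a median of 1.24. Of the 7 amino acid stress references 0 were called by limma, 6 were higher at an unadjusted p under 0.05 (7.75% of all probe sets tested), and the median was 1.39.

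**Figure D4:**
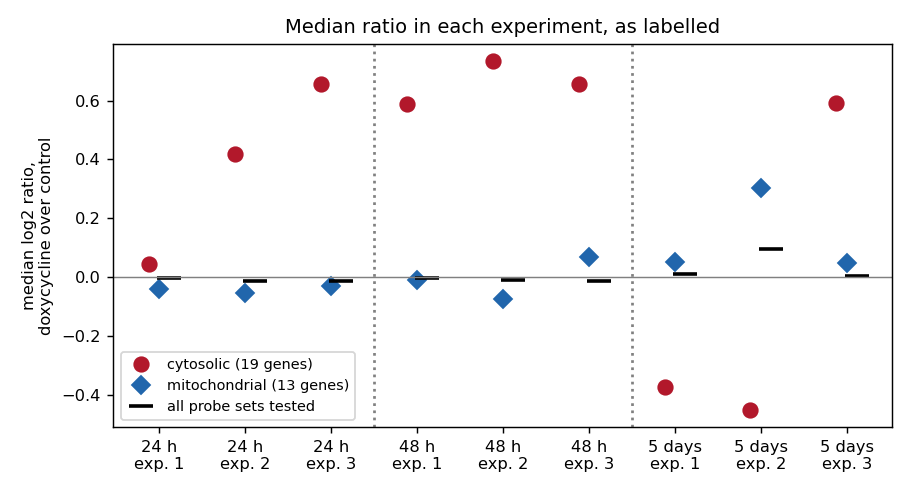
Median log2 ratio of doxycycline over control (y axis) in each experiment and time as labelled, for the 19 cytosolic genes (red circles), the 13 mitochondrial genes (blue diamonds) and all probe sets tested (black bars). The cytosolic median is near 0 in experiment 1 at 24 h (0.05), between 0.59 and 0.73 at 48 h, and of mixed sign at 5 days.

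Experiment 1 at 24 h stood apart through its control array. Mars1 had 4152, 3144 and 3791 at 24 h with doxycycline, against 4268, 1913 and 1760.1 in control cells. Nars1 had 4471, 4518 and 4452 with doxycycline, against 4534, 2619 and 2227 in control cells. Cars1 had 1388, 1092 and 1100.1 with doxycycline, against 1426, 646 and 557 in control cells. For these 3 genes the control of experiment 1 lay at or above the highest treated array, and the other controls lay below all treated arrays. Across the cytosolic list the treated array of experiment 1 was the highest of 3 in 4 of 19 genes, with a median 0.01 below the other treated arrays on the log2 scale. Its control was the highest of 3 in 13 of 19, with a median 0.52 above the other controls. In the mitochondrial list that control was highest in 4 of 13.

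The median level of the amino acid stress references, centred on the mean of all arrays, was 0.12 on that control array, against −1.05 and −1.44 on the other controls of 24 h. The ER chaperone level of the same array was −1.20, the lowest of these 3 controls. The array's part in the 24 h result was not tested beyond leaving out its experiment, which gave a cytosolic median of 0.60 and still 0 calls. The median was 0.40 without experiment 2 and 0.23 without experiment 3, also with 0 calls. Tars1 and Wars1 had the smallest adjusted p of the cytosolic genes at 24 h. Tars1 had 2059, 2387 and 2117 at 24 h with doxycycline, against 1592, 1483 and 1185 in control cells (log2 ratio 0.63, adjusted p = 0.116), and Wars1 was at 0.40 (adjusted p = 0.124). Both were called higher when the 24 h and 48 h arrays were fitted together (adjusted p = 0.0474 and 0.0390), where 1.09% of all probe sets were called higher and 0.29% lower at 24 h. At 48 h that joint fit called 12 cytosolic genes higher and Farsa lower, against 5.64% and 4.73% of all probe sets, and 0 mitochondrial genes.

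Fars2 was the mitochondrial gene with the lowest ratio at 24 h. Its signals were 860.4, 579 and 663 with doxycycline, against 1294, 784 and 915 in control cells, lower in 3 of 3 experiments, as were 20.3% of all probe sets tested, and the groups overlapped. The log2 ratio was −0.50 (SE 0.07, adjusted p = 0.0884), and in the joint fit of both times the adjusted p was 0.0239. Yars2 was at −0.30 (adjusted p = 0.296), with 247, 317 and 382 in treated cells, against 359, 384 and 405 in control cells. At 48 h Fars2 was at −0.10 and Yars2 at 0.04.

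The change in effect between the 24 h and 48 h times was tested on the 12 arrays of both. Of 15521 probe sets 0% were called by limma, and 4 synthetases (Fars2, Vars1, Qars1 and Yars2) had an unadjusted p under 0.05, all with the higher effect at 48 h, as did 3.35% of all probe sets tested. Among them Fars2 differed by 0.40 (adjusted p = 0.658) and Vars1 by 0.45 (adjusted p = 0.663). The larger cytosolic median at 48 h is therefore not shown to differ from that at 24 h.

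At 5 days no synthetase was called, nor was any other probe set (0% of 15521), and at an unadjusted p under 0.05 the count was 0 in both compartments, against 172 probe sets higher and 213 lower in all. With the labels as given, the cytosolic median log2 ratio was −0.37, −0.45 and 0.59 in experiments 1, 2 and 3. The mitochondrial median was 0.05, 0.30 and 0.05. The cytosolic median over the 3 experiments was −0.12, and it was 0.00 without experiment 1, 0.07 without experiment 2 and −0.47 without experiment 3. Arrays of experiments 1 and 2 stood apart. In experiment 1 all 6 ER chaperone references were lower in the array labelled doxycycline than in its control (median log2 ratio −2.13), whereas none was lower in the other 8 pairs, whose medians ran from 1.16 to 1.92. The labels of that pair thus run against the reference genes. The study listed all 6 of them as induced at 5 days, whereas Sdf2l1 was at −2.91 and Creld2 at −2.33 in this pair as labelled. Whether the labels were exchanged was not tested. In experiment 2 the treated array had a GAPDH 3′ to 5′ signal ratio of 2.91, against 1.05 to 1.19 on the other arrays, and the lowest median signal.

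**Figure D5:**
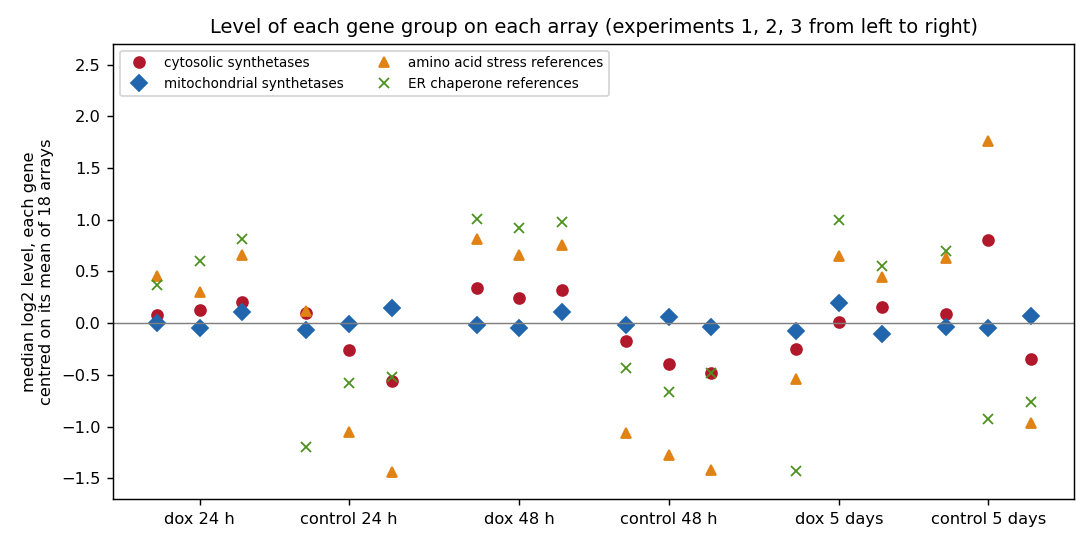
Median log2 level of the cytosolic synthetases (red circles), mitochondrial synthetases (blue diamonds), amino acid stress references (orange triangles) and ER chaperone references (green crosses) on each array, each gene centred on its mean of 18 arrays. The 5-day control of experiment 2 has the highest cytosolic level (0.80) and stress level (1.77), and the mitochondrial level stays between −0.10 and 0.20 on all arrays.

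Experiment 2 at 5 days was unusual on its control side too. Of the 19 cytosolic ratios 0 were positive there, and Mars1 had 2582, 4255 and 3875 with doxycycline, against 4415, 5542 and 2252 in control cells of the 3 experiments. Sars1 had 2725, 3177 and 4083 with doxycycline, against 3731, 8633 and 2709 in control cells. The control of experiment 2 was thus the highest array of its time for both genes. On it the amino acid stress level was 1.77, against 0.65 in the treated array of the same experiment, while the ER chaperone level was −0.92, against 1.00 in the treated array. The part of this array in the 5-day result was not tested.

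In experiment 3, the pair at 5 days with none of these features, 18 of 19 cytosolic ratios were positive with a median of 0.59, and 7 of 13 mitochondrial ratios were positive with a median of 0.05. With the labels of experiment 1 exchanged, its cytosolic median was 0.37. Over all 3 experiments with that exchange the cytosolic median was 0.10 and the mitochondrial median 0.06. Experiments 1 and 3 alone, without experiment 2, gave 0.50 (mitochondrial 0.05). A fit of all 18 arrays with that exchange called 1.83% of probe sets higher and 0.908% lower at 5 days, and 0 of the synthetases in either compartment. At an unadjusted p under 0.05 it also gave 0 synthetases, where 12% of all probe sets tested were higher and 10.1% lower.

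A few mitochondrial genes had one sign at 5 days as labelled. Iars2 had 229.7, 367 and 249 with doxycycline, against 212, 187 and 213 in control cells, without overlap (log2 ratio 0.44, adjusted p = 0.935). Tars2 had 557, 564 and 604 with doxycycline, against 523, 458 and 424 in control cells, also without overlap (log2 ratio 0.30, adjusted p = 0.935). Such a separation, with doxycycline higher, was present in 3.73% of all probe sets tested. The second Tars2 probe set had a mean of −0.73, opposite in sign. Wars2 was negative in 3 of 3 experiments at each time, as were 20.3% (24 h), 25.4% (48 h) and 9.84% (5 days) of all probe sets tested, with means of −0.15 at 24 h, −0.25 at 48 h and −0.30 at 5 days, none of them called. With the labels of experiment 1 exchanged these 5-day means became 0.36 for Iars2, 0.24 for Tars2 and −0.15 for Wars2.

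The cells carried the markers of their labelled type. All 8 beta cell markers lay in the upper 50% of signals (median percentile 97), and 0 of 10 fibroblast, acinar, endothelial and leukocyte markers did. Of 3 markers of other islet cells, Gcg alone passed, and it fell at 48 h (log2 ratio −2.71, adjusted p = 0.00669). Of the 8 beta cell markers, 1 was called lower by limma at 48 h, the regulator Mafa (−1.07, adjusted p = 0.0118), and 7 had no call. Over all probe sets tested 1.19% were called lower. At an unadjusted p under 0.05, 5 of the 8 were lower and 0 higher, where 12.5% of all probe sets tested were lower.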

How the data were processed

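The authors hybridized labelled RNA from clone #4S2 cells to Affymetrix Rat Genome 230 2.0 arrays and deposited an intensity on a linear scale for every probe set, each array scaled to a trimmed mean of 500. For the summarisation program and background step, the sources used here give nothing. Groups and replicate numbers came from the labels, and the replicate number was used as the experiment number. Of 31099 probe sets, 57 controls were removed. Intensities were quantile-normalized, floored at their 10th percentile (5.99) and taken to log2. Tests covered 15521 probe sets, the upper 50% by mean log2 signal, and were run at each time with limma (version 3.58.1, R 4.3.3) on 6 arrays, with the experiment as a block, Benjamini-Hochberg adjustment and a threshold of 0.05. The 48 h minus 24 h contrast used 12 arrays. The scripts were tested on simulated data. Ratios are doxycycline over control, so a positive log2 ratio is higher with doxycycline.

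Gene names came from the platform annotation, updated through RefSeq (GRCr8), and each gene was read from its single-gene probe set of highest mean signal. The rule for named genes allowed every member. Signals per array were given for the 8 cytosolic members with the largest and the 4 with the smallest mean log2 ratio at 48 h and for the 6 mitochondrial members of highest mean signal. Members, lists and tests were chosen with earlier results of these data known. Treated and control arrays of a time with equal replicate numbers were taken as 1 independent experiment. The labels give the number only, and do not state that it marks the same experiment within or across times. To describe this pairing, each treated array's departure from its group mean was correlated with that of its control over probe sets. The values were 0.667, 0.484 and 0.662 (24 h), then 0.578, 0.256 and 0.359 (48 h), then 0.149, 0.142 and 0.109 (5 days). Values for arrays of unlike numbers are not given, so these do not establish the pairing, and they were lowest at 5 days. Array medians were 91.2 to 138.5, and no 2 arrays were identical in 153 comparisons. The number of arrays limits the precision. Alternatives were the normalization, the floor or an offset of 16, the filter, other array sets, no block, leaving out each experiment, exchanged labels in the 5-day pair, the mean of all probe sets of a gene, and the methods' t-test. Some sequences and genes are not reported here.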

Additional observations from a re-analysis of the deposited data

Results flagged for a closer look

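Tars2, the mitochondrial threonine enzyme, had a positive log2 ratio in each experiment at 5 days (0.09, 0.30 and 0.51) and a negative one in each experiment at 24 h (−0.01, −0.06 and −0.04), so its mean at 5 days minus that at 24 h was 0.34. The difference was not tested, the 24 h values were close to 0, and the 5-day value of experiment 1 comes from the pair whose labels run against the ER chaperone genes. The second Tars2 probe set had means of 0.02 at 24 h and −0.73 at 5 days.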

How the results depend on the processing

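The direction of every called cytosolic gene was kept under all alternatives run, and 22 of 720 member values at 24 h and 48 h changed sign, none of them called. The 5-day values were not part of that count. The 12 cytosolic calls at 48 h were 13 without quantile normalization, with an offset of 16 or in the 12-array fit (12 higher and Farsa lower), 9 with no replicate block (Farsb, Sars1 and Vars1 lost), 6 by the methods' t-test, and 0 with no filter (floor or offset of 16) or with all 18 arrays. Leaving out 1 experiment gave 0 to 0 calls. Over all probe sets, the 546 calls at 48 h became 275 with no replicate block, 1610 in the 12-array fit, 162 by the t-test, 0 with no filter (floor or offset) or 18 arrays, and 0 to 36 without 1 experiment. The 32 calls at 24 h became 85 with the offset, 214 in the 12-array fit, and 0 with no filter (floor or offset), 18 arrays, no replicate block, the t-test or any 1 experiment left out (0 to 0). At 24 h the 12-array fit called 2 cytosolic genes (Tars1, Wars1) and 1 mitochondrial gene (Fars2, lower), where the reported counts were 0. At 5 days, 0 calls over all probe sets became 425 with exchanged labels and 18 arrays, of which 0 were synthetases. The cytosolic median at 48 h was 0.58 to 0.68 with 1 experiment left out, and the mitochondrial median at 24 h was −0.0085 with the mean of all probe sets of a gene. The cause of the lost calls was not tested. The settings that joined no filter with the offset and that used members past the filter were chosen after seeing the data. Mitochondrial genes were read at mean signal percentiles of 41.1 to 81.6 and cytosolic ones at 64.7 to 98.6.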
